A study of Mus musculus with 8 samples.

Results

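The genes described here encode enzymes and regulators of fatty acid oxidation. They were read as RNA in the ventricle of the mouse embryo, and oxidation itself was not measured. The genes were chosen by name: Cpt1a, Cpt1b, Cpt2, Acadm, Acadl, Acadvl, Hadha, Hadhb, Ppara and Ppargc1a. All 10 were found among the 52778 features of the deposited table, and all 10 were expressed enough to be among the 15545 genes tested. RNA came from ventricular heart at embryonic day 11.5 in 4 control libraries, labelled C57BL/6 wild type, and in 4 libraries labelled as a global ATF4 knockout. The knockout allele, Atf4 del7/del7, lacks 7 bases in exon 3 of Atf4 and shifts the reading frame in every cell of the embryo, while the polyadenylation signal is left in place. The genotype field of the knockout samples also reads wild type, so groups were taken from the sample titles. No treatment was given, all 8 libraries carry the same batch label, and the 4 libraries of a genotype are called biological replicates, without a word on whether each is a single embryo or a pool. The protocol fields also disagree with the tissue label, since they describe RNA from cultured neurons, so the tissue was compared with marker genes at the end.

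Long-chain fatty acids enter mitochondria through the carnitine shuttle: CPT1 on the outer membrane makes acylcarnitine, and CPT2 on the inner membrane returns it to acyl-CoA. Acyl-CoA dehydrogenases of different chain-length preference then start each round of beta-oxidation, and the trifunctional protein, built from the HADHA and HADHB subunits, carries out the later steps on long chains. The nuclear receptor PPAR-alpha and the coactivator encoded by Ppargc1a raise transcription of these enzymes. The adult heart takes most of its energy from fatty acids, whereas the embryonic heart relies more on glucose and lactate, and the switch comes around birth.

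Levels are in TPM, which accounts for transcript length, so genes can be compared with each other. Differences are log2 fold changes, mutant minus control, on the log2(TPM + 1) scale from limma, with p-values adjusted over all 15545 genes by Benjamini-Hochberg. Together the 10 genes held 1093 ± 34.0 TPM in control ventricles and 1092 ± 50.7 TPM in mutant ventricles (SD, n = 4 each). By library the sum was 1137, 1092, 1089 and 1054 TPM for controls and 1136, 1024, 1125 and 1085 TPM for mutants, with replicates 1 to 4 in this order here and in every list of values that follows. The groups overlapped almost completely in this sum.

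None of the 10 genes passed an adjusted p of 0.05, a count of 0, and none had an unadjusted p below 0.05, also a count of 0. In 7 of the alternative settings 1 or 2 members had an unadjusted p below 0.05. These were Acadvl in 5 settings, among them the replicate block and the fits without control replicate 4 or mutant replicate 1, Cpt1a without control replicate 2 or 4, and Ppara without mutant replicate 3. The share of all genes with an unadjusted p below 0.05 was counted only in the main setting, so these member counts have no background. The smallest adjusted p of any member in any setting was 0.704 in limma, for Cpt1a without control replicate 4. Over all genes tested, 0.0386% passed the adjusted threshold (0.00643%, 1 gene, higher and 0.0322%, 5 genes, lower in mutant ventricles) and 6.10% had an unadjusted p below 0.05. In none of the 10 genes, a count of 0, did the 4 mutant values lie apart from the 4 control values, which was the case for 3.68% of all genes. The log2 fold change was below 0 in 6 of the 10 genes and in 51.8% of all genes. The median was -0.013 over the 10 genes and -0.0033 over all genes. Its sign rested on single libraries: without mutant replicate 2 the members' median was 0.035, with 3 of 10 below 0, and without control replicate 1 it was 0.0086. The median over all genes also moved up, to 0.00093 and 0.0027 in these fits. The targeted gene was read in every library: Atf4 held 105, 121, 115 and 105 TPM in control ventricles and 166, 164, 185 and 148 TPM in mutant ventricles. Its transcript rose (log2 fold change 0.57, adjusted p = 0.0430), and a frameshift that leaves the transcript in place is not read out by this level. This call was lost in each setting that left 0 genes past the threshold, the replicate block and the fits without control replicate 2, 3 or 4 among them, while its groups did not overlap.

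**Figure D1:**
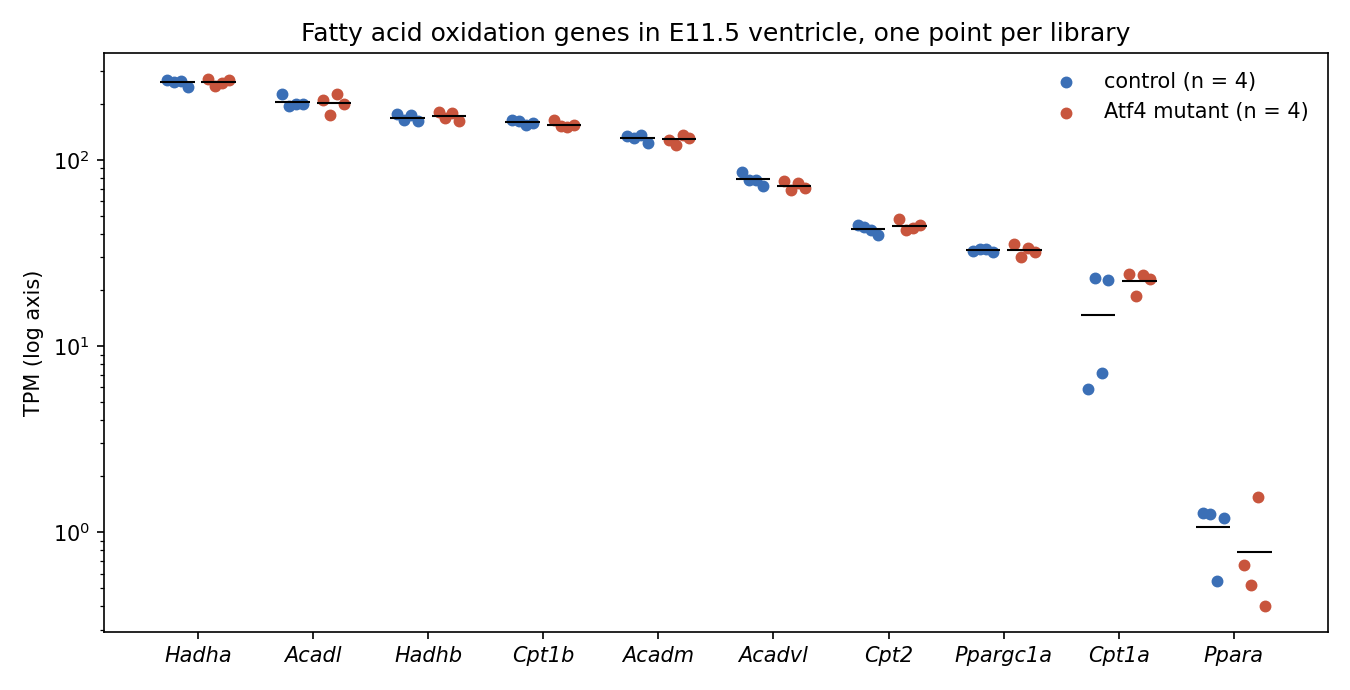
TPM of each of the 10 genes on a log axis, ordered by mean level, with 1 point per library (control in blue, Atf4 mutant in red) and a line at each group mean. The points of the groups overlap in every gene; they are most spread in Cpt1a, where control replicates 1 and 3 sit at 5.90 and 7.14 TPM, and Ppara, which is near 1 TPM.

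The order of the genes by mean level was Hadha at 262 TPM, Acadl at 203, Hadhb at 171, Cpt1b at 157, Acadm at 130, Acadvl at 75.5, Cpt2 at 43.4, Ppargc1a at 32.7, Cpt1a at 18.6 and Ppara at 0.925 TPM. Each gene lay above the next one in 8 of 8 libraries, so the order was the same within every library of both genotypes. Across libraries the ranges of Acadl and Hadhb overlapped, as did those of Hadhb and Cpt1b. The smallest step within a library was Hadhb over Cpt1b, at 1.00-fold in the lowest library and 1.19-fold in the highest. These are levels as listed: Hadhb and Cpt1b each share sequence with another listed feature, and their places in the order change when the pairs are summed.

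CPT1 is the gate of the pathway and has a heart and muscle form, encoded by Cpt1b, and a liver form, encoded by Cpt1a. Cpt1b (chromosome 15, bases 89416405 to 89425862, minus strand, GRCm38) held 164, 162, 153 and 157 TPM in control ventricles and 163, 152, 149 and 153 TPM in mutant ventricles. The groups overlapped, and the log2 fold change was -0.045 (SE 0.037, 95% interval -0.13 to 0.038, adjusted p = 0.911). Cpt1b shares its 3' end and strand with Gm44502, a read-through transcript that joins it to the upstream gene Chkb, the gene for choline kinase beta. In GENCODE M21, 94.8% of the 2895-base Cpt1b transcript was found letter for letter in the Gm44502 transcript, so reads from these exons can be assigned to either. Gm44502 held 107 to 117 TPM, and its ratio to Cpt1b stayed between 0.702 and 0.720 in all 8 libraries. Summed, Cpt1b and Gm44502 held 273 ± 9.03 TPM in control ventricles and 264 ± 9.54 TPM in mutant ventricles (SD, n = 4 each), with a log2 fold change of -0.049 (adjusted p = 0.903). The sum, 257 to 281 TPM, lay above Acadl in every library and overlapped the range of Hadha.

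Cpt1a (chromosome 19, bases 3322326 to 3385735, plus strand) was the member whose libraries differed most. It held 5.90, 23.2, 7.14 and 22.5 TPM in control ventricles and 24.4, 18.5, 23.9 and 22.8 TPM in mutant ventricles. Control replicates 1 and 3 were low, and control replicates 2 and 4 lay within the range of the mutants. Reads were not used here, and whether the low values arose in the tissue or in quantification was not tested. The log2 fold change was 0.80 with an SE of 0.39 and a 95% interval from -0.086 to 1.69, and it did not pass (unadjusted p = 0.0716, adjusted p = 0.841). Without control replicates 1 and 3 it was -0.034 (adjusted p = 0.994), so the direction of this value rested on those libraries. Without control replicate 1 alone it was 0.48, and without control replicate 3 alone 0.56.

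The spread of Cpt1a among the controls was wide beside that of all tested genes with a mean of at least 10 TPM. These include genes of far higher level, and the comparison was made after the values of Cpt1a were seen. The controls spanned 1.81 on the log2 scale and the mutants 0.38, while the median control span of the 9529 genes with a mean of at least 10 TPM was 0.16. A control span as wide as that of Cpt1a occurred in 19 of these genes, or 0.199%, and a mutant span as wide in 23. Cpt1a was 1 of 1 gene among them in which control replicates 1 and 3 both fell below 50% of the lowest of the other 6 libraries. This pattern was looked for after the values were seen, so Cpt1a was bound to be counted. Other pairs of libraries were not searched, so how rare such a pattern is was not measured. Gm36532, a feature on the opposite strand within Cpt1a, was highest in control replicate 3, at 0.523 TPM, and held 0.121 TPM in control replicate 1. The 8 cardiomyocyte markers summed to 38763 and 38287 TPM in control replicates 1 and 3 and to 39040 and 36646 TPM in replicates 2 and 4. The 7 hepatocyte markers summed to at most 1.94 TPM in any library. A link of any of these values to the level of Cpt1a was not tested.

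**Figure D2:**
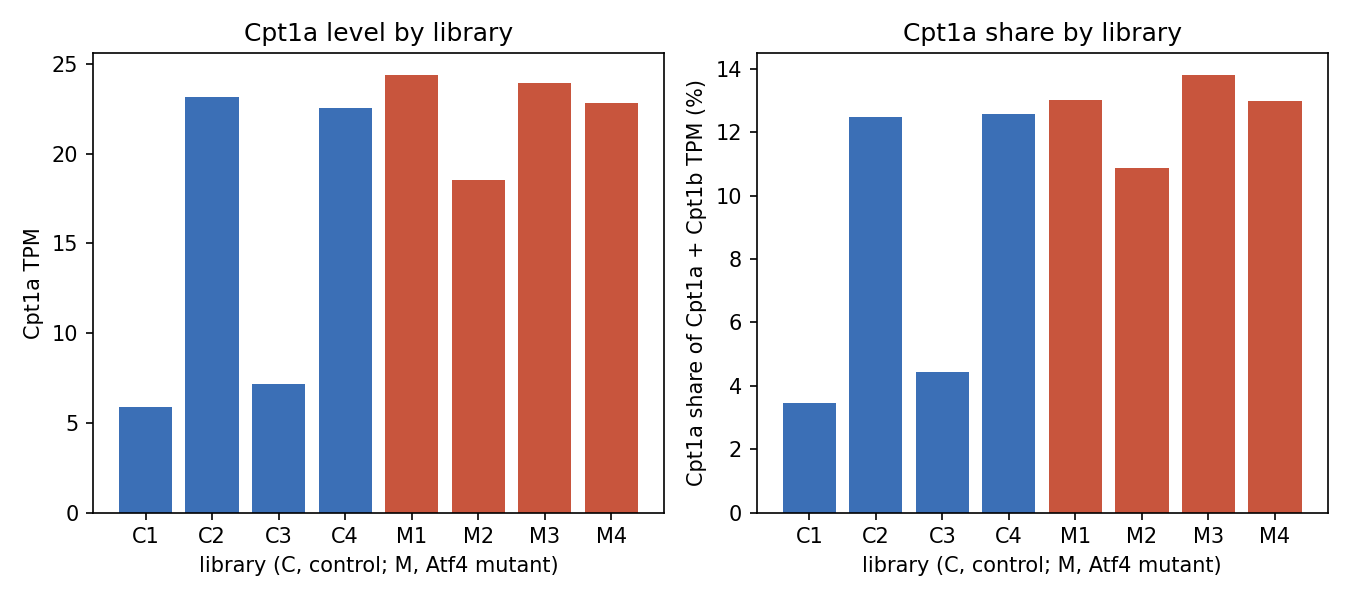
Left, Cpt1a in TPM for each library; right, Cpt1a as a percentage of the summed TPM of Cpt1a and Cpt1b (C1 to C4, controls in blue; M1 to M4, Atf4 mutants in red; 1 bar per library, with no error). C1 and C3 stand below the other 6 libraries in both panels.

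Within a library, the balance of the CPT1 forms does not depend on scaling between libraries, though it is given for Cpt1b as listed, without Gm44502. The Cpt1a share of the summed TPM of both genes was 3.47%, 12.5%, 4.45% and 12.6% in control ventricles and 13.0%, 10.9%, 13.8% and 13.0% in mutant ventricles. Cpt1b, the muscle form, therefore made up 91.8% ± 4.96 of the sum in control ventricles and 87.3% ± 1.26 in mutant ventricles (SD, n = 4 each), and the groups overlapped. The difference of -4.43 percentage points became -0.14 without control replicates 1 and 3.

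Cpt2 (chromosome 4, bases 107903982 to 107923589, minus strand), whose product completes the shuttle, held 44.6, 43.6, 42.1 and 39.5 TPM in control ventricles and 48.1, 41.8, 42.8 and 44.5 TPM in mutant ventricles. Mutant replicate 1 was the highest and control replicate 4 the lowest, and the other libraries were interleaved. The log2 fold change was 0.061 (95% interval -0.062 to 0.18, adjusted p = 0.926).

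The acyl-CoA dehydrogenases were read in the order of the chain lengths they prefer. Acadvl (chromosome 11, bases 70010183 to 70015428, minus strand), for very long chains, held 86.1, 77.6, 77.9 and 72.6 TPM in control ventricles and 76.5, 68.6, 74.7 and 70.1 TPM in mutant ventricles. Control replicate 1 was the highest library and 3 of the 4 controls lay above every mutant, while control replicate 4 lay among the mutants. Its log2 fold change was -0.11 (SE 0.056, 95% interval -0.24 to 0.013) and did not pass (unadjusted p = 0.0739, adjusted p = 0.841).

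Acadl (chromosome 1, bases 66830839 to 66863309, minus strand), for long chains, held 225, 195, 199 and 199 TPM in control ventricles and 209, 174, 225 and 199 TPM in mutant ventricles. Both groups had a library at 225 TPM, and mutant replicate 2 was the lowest. Acadm (chromosome 3, bases 153922353 to 153944643, minus strand), for medium chains, held 134, 131, 136 and 123 TPM in control ventricles and 128, 120, 136 and 131 TPM in mutant ventricles. Here too the highest values of the groups were the same to 3 digits, and mutant replicate 2 was the lowest. The log2 fold changes were -0.023 for Acadl (95% interval -0.19 to 0.15) and -0.026 for Acadm (95% interval -0.13 to 0.078), with an adjusted p of 0.984 and 0.962.

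Promoters of genes for beta-oxidation are classic targets of nuclear receptors, which bind the core hexamer AGGTCA. To show where this core occurs, the 250 bases upstream of each RefSeq start (GRCm38.p6) were searched on both strands in the 9 members with an entry, which are all but Cpt1b. The RefSeq start is the start of the table's gene in 6 of the 9, while in Cpt1a, Ppara and Ppargc1a it lies 975, 866 and 548128 bases inside the gene as the table bounds it. The hexamer was found in Cpt1a, Acadm and Acadvl, and in 14.05% of 32544 windows of all genes. It is printed in capitals with up to 20 bases on each side, on the strand of the gene, and TGACCT is the hexamer read from the opposite strand.
Cpt1a, upstream of the RefSeq start at base 3323301 but inside the table's gene, chr19:3323187-3323232, plus strand: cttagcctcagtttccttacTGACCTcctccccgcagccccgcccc
Acadm, chr3:153944867-153944893, minus strand: gTGACCTtcgggctccggtgacactgg
Acadvl, chr11:70015490-70015535, minus strand: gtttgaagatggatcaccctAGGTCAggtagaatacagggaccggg
The DR1 element, the hexamer repeated with any 1 base between the copies, occurred in 0.0338% of all windows, the ERR element TNAAGGTCA, where N is any base, in 1.13% and the C/EBP-ATF composite TGATGNAA in 3.40%. These 3 longer motifs matched 0 of the 9 members. The hexamer is contained in DR1 and in the ERR element, so these searches overlap.

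HADHA carries the hydratase and dehydrogenase activities of the trifunctional protein, and HADHB the thiolase. Hadha (chromosome 5, bases 30119423 to 30154980, minus strand) was the most abundant member, at 267, 262, 265 and 247 TPM in control ventricles and 271, 250, 260 and 270 TPM in mutant ventricles. Hadhb (bases 30155253 to 30184593, plus strand) held 177, 163, 174 and 161 TPM in control ventricles and 181, 168, 178 and 162 TPM in mutant ventricles. In both genes mutant replicate 1 was the highest library and control replicate 4 the lowest. The log2 fold changes were 0.013 for Hadha (95% interval -0.073 to 0.098, adjusted p = 0.984) and 0.031 for Hadhb (95% interval -0.073 to 0.14, adjusted p = 0.958).

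The pair is transcribed in opposite directions from neighbouring starts, 272 bases apart in RefSeq and 85 bases apart in GENCODE M21. The stretch between the GENCODE starts, shown because both genes share it, contains no annotated exon and is 69.4% G or C. Its 2 GC boxes, GGGCGG on either strand, are in capitals; in the 250-base windows this motif occurred in 6 of the 9 members and in 32.96% of all genes' windows.
Hadha-Hadhb, chr5:30155163-30155247, plus strand: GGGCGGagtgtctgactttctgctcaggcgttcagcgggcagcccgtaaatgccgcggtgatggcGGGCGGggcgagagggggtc
The ratio of Hadhb to Hadha was 0.661, 0.622, 0.656 and 0.653 in control ventricles and 0.669, 0.671, 0.686 and 0.602 in mutant ventricles. Its mean was 0.648 ± 0.0176 in control ventricles and 0.657 ± 0.0377 in mutant ventricles (SD, n = 4 each). Mutant replicate 4 was the lowest and mutant replicate 3 the highest, and the groups overlapped.

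Hadhb has a near-perfect copy elsewhere in the genome, which bears on its level. Hadhb-ps is a processed pseudogene on chromosome 2 (bases 108948770 to 108950728, plus strand). Its GENCODE M21 entry, bases 108948806 to 108950233, is as long as the Hadhb coding sequence of 1428 bases and matches it in 1425 of them, or 99.8%. The longest stretch without a difference is 685 bases, longer than short reads usually are. The 3 differences are G201A, A393G and G743A, with the Hadhb base first and positions counted from 1 at the A of the start codon. Each is printed in capitals with 20 bases on each side. Within the coding part, only reads that cover such a base can tell the gene from its copy. Sequence outside the coding part was not compared, and the listed feature extends past the GENCODE entry at both ends.
Hadhb, coding base 201: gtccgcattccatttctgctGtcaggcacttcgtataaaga
Hadhb-ps, chr2:108948986-108949026: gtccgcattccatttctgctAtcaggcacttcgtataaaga
Hadhb, coding base 393: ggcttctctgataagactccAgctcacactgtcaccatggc
Hadhb-ps, chr2:108949178-108949218: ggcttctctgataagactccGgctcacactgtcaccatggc
Hadhb, coding base 743: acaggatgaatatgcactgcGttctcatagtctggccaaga
Hadhb-ps, chr2:108949528-108949568: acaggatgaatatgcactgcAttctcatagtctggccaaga

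The table lists Hadhb-ps at 64.4, 66.1, 65.3 and 56.4 TPM in control ventricles and 66.5, 54.8, 56.0 and 70.6 TPM in mutant ventricles. How reads that fit both places were assigned is not given in the sources used here, so the level of Hadhb alone is uncertain. Summed, gene and copy held 232 ± 10.9 TPM in control ventricles and 234 ± 10.2 TPM in mutant ventricles (SD, n = 4 each), with a log2 fold change of 0.016 (adjusted p = 0.980). The summed value stood at 0.863 to 0.915 of Hadha in the 8 libraries, against 0.602 to 0.686 for Hadhb alone. With the sum in place of Hadhb, the place of the gene in the order of levels would be above Acadl.

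Ppargc1a (chromosome 5, bases 51454249 to 52115853, minus strand), the coactivator that links energy demand to mitochondrial gene expression, held 32.5, 33.3, 33.1 and 32.1 TPM in control ventricles. The mutants held 35.3, 30.2, 33.6 and 31.9 TPM, so both the highest and the lowest library were mutants. The group means were 32.7 ± 0.521 and 32.7 ± 2.24 TPM (SD, n = 4 each), and the log2 fold change was -0.0023 (95% interval -0.12 to 0.11, adjusted p = 0.998).

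Ppara (chromosome 15, bases 85734910 to 85806851, plus strand) was scarce, at 1.26, 1.26, 0.547 and 1.19 TPM in control ventricles and 0.668, 0.520, 1.54 and 0.404 TPM in mutant ventricles. It passed the filter on low values with 4 libraries at 1 TPM or above, the smallest number allowed. Within each genotype 1 library stood on the side of the other: control replicate 3 was low and mutant replicate 3 was the highest of all 8. The log2 fold change of -0.23 (95% interval -0.70 to 0.23, adjusted p = 0.923) was within this spread, and a change of Ppara was not detectable at this level.

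**Figure D3:**
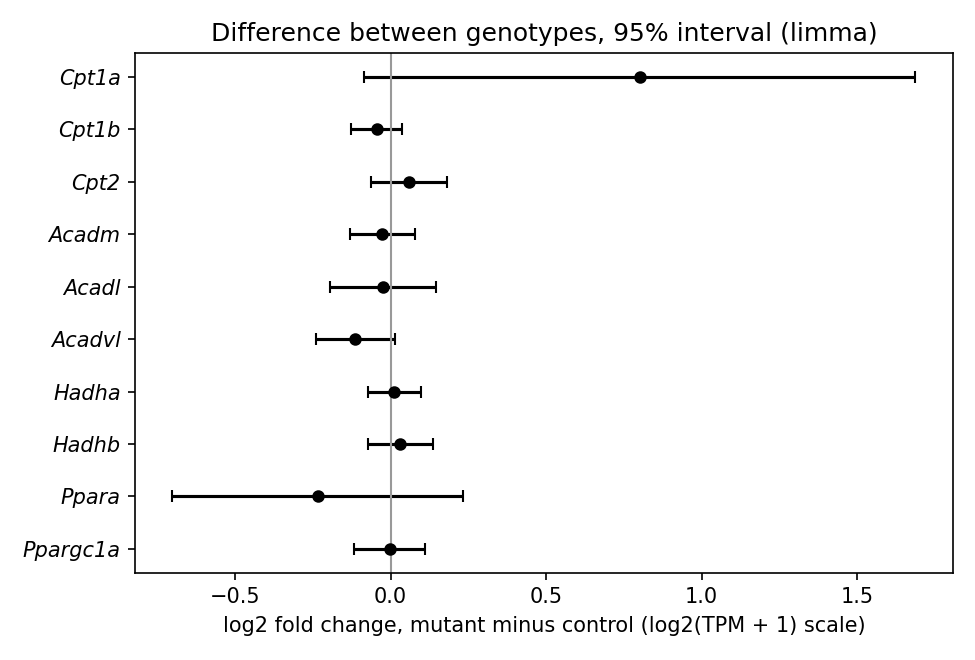
Log2 fold change of each of the 10 genes, mutant minus control on the log2(TPM + 1) scale, with its 95% interval from limma (4 control and 4 mutant libraries). All 10 intervals include 0, and those of Cpt1a and Ppara are the widest.

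The intervals show what size of change the data leave room for. For Cpt1b, Cpt2, Acadm, Acadl, Acadvl, Hadha, Hadhb and Ppargc1a they reached no further than -0.24 and 0.18 on the log2 scale, and for Ppara and Cpt1a they ran from -0.70 to 0.23 and from -0.086 to 1.69. Libraries also differed together: mutant replicate 1 was the highest of 8 for 5 of the genes, and mutant replicate 2 the lowest for 4 of them. Mutant replicate 2 also had the lowest total over all listed features, 923473 TPM against 930446 to 949762 in the others.

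The rest of the pathway was read from 6 lists of 100 genes, of which 99 matched a feature and 86 were expressed enough to be tested. Of these 86 genes, 0 passed the adjusted threshold in either direction. At an unadjusted p below 0.05 there were 4, or 4.65%, against 6.10% of all genes. This count was 11 without mutant replicate 1, 7 without mutant replicate 3 and 3 without control replicate 2 or mutant replicate 2. The share of all genes was not counted in those fits, so these counts cannot be set against 6.10%. The values of the groups did not overlap in 4, again 4.65%, against 3.68% of all genes. Of the 86, 33 were higher and 53 lower, and their median log2 fold change was -0.015. The share lower was 61.6%, against 51.8% of all genes. It rested on single libraries: the number lower was 43 without mutant replicate 4, 47 without mutant replicate 2 and 59 without mutant replicate 1. The median over all genes moved with the same libraries, to 0.0055, 0.00093 and -0.014 in these fits, in this order.

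In the list of uptake, binding and activation of fatty acids, 15 of 16 genes were tested, with 6 higher and 9 lower and a median of -0.028. Fabp3 and Fabp5, which bind fatty acids in the cytosol, were the most abundant, at 415 ± 28.5 and 270 ± 12.6 TPM in control ventricles and 402 ± 23.5 and 257 ± 14.9 TPM in mutant ventricles (SD, n = 4 each). The smallest p-values were those of the transport protein genes Slc27a3, with a log2 fold change of 0.27 (unadjusted p = 0.0301, adjusted p = 0.809), and Slc27a1, with -0.20 (adjusted p = 0.875). Slc27a3 stood at 6.49 to 8.17 TPM in control ventricles and 8.02 to 10.8 TPM in mutant ventricles, and the groups overlapped.

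Among the other genes of the carnitine shuttle and of malonyl-CoA, the metabolite that blocks CPT1, 8 of 11 were tested, with 4 higher and 4 lower and a median of 0.00070. Slc25a20, the acylcarnitine carrier of the inner membrane, held 46.9 ± 2.01 TPM in control ventricles and 47.3 ± 2.34 TPM in mutant ventricles. Crat, for carnitine acetyltransferase, held 39.5 ± 0.561 and 40.6 ± 4.03 TPM (SD, n = 4 each). Acacb, which makes malonyl-CoA at the mitochondrial surface, stood at 20.2, 22.3, 21.6 and 20.8 TPM in control ventricles and 20.1, 19.9, 20.1 and 19.3 TPM in mutant ventricles. Its groups did not overlap, by a gap below 0.1 TPM, and its log2 fold change of -0.091 did not pass (unadjusted p = 0.0740, adjusted p = 0.841). Mlycd, which removes malonyl-CoA, had a log2 fold change of -0.12 (adjusted p = 0.843). Acaca, the other gene for making malonyl-CoA, picked here from its values, differed by 0.071 on the log2 scale (adjusted p = 0.929), so the genes around this inhibitor lay on both sides of 0.

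All 17 other genes of mitochondrial beta-oxidation and electron transfer were tested, with 10 higher and 7 lower and a median of 0.011. Etfb and Etfa, the subunits of the flavoprotein that takes electrons from the acyl-CoA dehydrogenases, held 304 ± 22.8 and 174 ± 7.72 TPM in control ventricles and 312 ± 14.8 and 178 ± 2.97 TPM in mutant ventricles (SD, n = 4 each). Acad11, a dehydrogenase of the same family, had a log2 fold change of 0.17 (adjusted p = 0.821), and Eci2, an enoyl-CoA isomerase, one of -0.082 (adjusted p = 0.841). Decr1, for the reductase that handles unsaturated chains, is named after its values were seen: its groups did not overlap, at 40.7 to 41.4 TPM in control ventricles and 41.6 to 42.6 TPM in mutant ventricles, with an adjusted p of 0.931.

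Of the peroxisomal genes 13 of 16 were tested, with 5 higher and 8 lower and a median of -0.035. Hsd17b4 and Phyh, the most abundant, held 73.9 ± 3.78 and 71.1 ± 3.27 TPM in control ventricles and 76.6 ± 2.85 and 71.3 ± 4.21 TPM in mutant ventricles (SD, n = 4 each). Acox3, an acyl-CoA oxidase for branched chains, stood at 10.4, 12.2, 10.9 and 10.7 TPM in control ventricles and 9.09, 9.69, 10.1 and 8.39 TPM in mutant ventricles. Every mutant lay below every control, and the log2 fold change of -0.23 had an unadjusted p of 0.0125 and an adjusted p of 0.780.

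Among the other regulators 21 of 22 were tested, with 5 higher and 16 lower and a median of -0.017. The kinase genes Prkaa2 and Stk11, of the AMPK pathway that senses low energy, held 58.4 ± 1.69 and 56.0 ± 2.57 TPM in control ventricles and 57.8 ± 3.12 and 53.9 ± 3.42 TPM in mutant ventricles (SD, n = 4 each). Tfam, a mitochondrial DNA packaging and transcription factor, stood at 25.04, 24.6, 25.3 and 24.8 TPM in control ventricles and 27.8, 26.3, 27.0 and 27.1 TPM in mutant ventricles. Every mutant lay above every control, and its log2 fold change of 0.12 had an unadjusted p of 0.0124 and an adjusted p of 0.780. Nrf1, a factor for nuclear genes of the respiratory chain, had a log2 fold change of -0.10 (adjusted p = 0.857). Pparg, a relative of Ppara known from fat tissue, stayed at or below 0.0574 TPM in every library and was not tested.

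In the list of other PPAR targets and ketone body enzymes, 12 of 18 genes were tested, with 3 higher and 9 lower and a median of -0.028. Oxct1, which lets the heart burn ketone bodies, held 209 ± 10.7 TPM in control ventricles and 219 ± 12.1 TPM in mutant ventricles. Ucp2, for a carrier of the inner membrane, held 117 ± 4.69 and 115 ± 10.2 TPM (SD, n = 4 each). The smallest p-values were those of Pdk4, a kinase that keeps pyruvate out of the citric acid cycle, with a log2 fold change of -0.097 (adjusted p = 0.862), and of Oxct1, with 0.064 (adjusted p = 0.903).

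**Figure D4:**
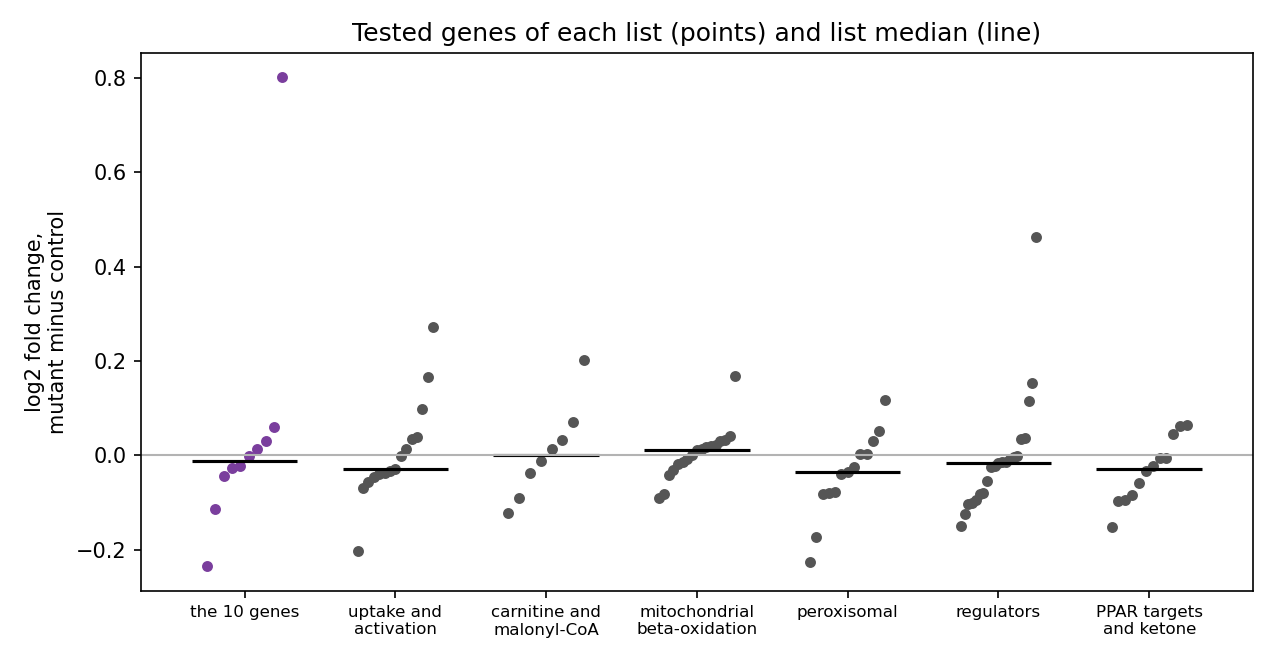
Log2 fold change of every tested gene (points, sorted within each list; mutant minus control) and the list median (line) for the 10 genes and for 6 other lists of the pathway. All medians lie between -0.035 and 0.011, and the highest point is Cpt1a at 0.80.

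The tissue label was compared with marker genes. The 8 cardiomyocyte markers were all tested and summed to 36646 to 39040 TPM in control ventricles and 35823 to 38620 TPM in mutant ventricles. The 7 hepatocyte and 5 adipocyte markers, cells rich in fatty acid metabolism, were all below the filter, summed to at most 1.94 and 0.377 TPM, and included Lep and Plin1 at 0 in every library. Of the other lists, the 5 macrophage markers summed to 12.3 to 19.1 TPM in control ventricles and 7.80 to 12.0 TPM in mutant ventricles, without overlap and with 4 of 4 tested genes lower. The 9 erythroid markers summed to 4671 to 7961 TPM in control ventricles and 4362 to 6071 TPM in mutant ventricles, with overlap and with 8 of 9 lower. Over all genes tested, 51.8% were lower. The 5 neuronal markers summed to 9.92 to 15.3 TPM in control ventricles and 11.4 to 12.8 TPM in mutant ventricles; 3 passed the filter, and Tubb3 made up most of the sum, at 7.06 to 11.8 TPM in the controls. Sums of endothelial, epicardial, mesenchymal and neuronal markers overlapped between the groups, and 0 marker genes of any list passed the adjusted threshold. The part of these cells in the values above was not tested. In tissue RNA, fewer cells of a type and less RNA per cell cannot be told apart.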

How the data were processed

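The authors deposited TPM, 1 value per feature and library, in a single table. Per the submitters' processing notes, the tools were FastQC, Trim Galore 0.6.7, HISAT2 2.2.1, StringTie 2.2.1, featureCounts and DESeq2, with GRCm38 (mm10) as the build. Their roles, the annotation, the strand setting and the handling of reads that fit several places are not given in the sources used here. The labels disagree on the library type (poly(A) selection or ribosomal RNA depletion). TPM keeps no depth, so reads per library are unknown and the spread between libraries is the measure of error. The labels call the libraries biological replicates but do not tie each to an embryo, so p-values measure only that spread.

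A gene was kept if 4 or more of the 8 libraries reached 1 TPM, and values were analysed as log2(TPM + 1) in limma 3.58.1 (R 4.3.3) with a variance trend, no covariate and two-sided tests. Fold changes on this scale understate those of low genes. Data were simulated for this comparison with 15545 genes, of which 200 were changed. A log2 change of 0.2 was recovered in 3.5% of the changed genes and one of 0.3 in 28%. One of 0.5 was recovered in 71% and one of 1 in 95%. At 0.5, 149 genes passed the adjusted threshold, against 6 in the real comparison. The Benjamini-Hochberg adjustment is less strict when more genes pass. Recovery with fewer changed genes was not tested, so these shares hold only for 200 changed genes. The simulated noise was independent between genes, whereas genes of the real libraries also differed together. Python 3.11.15, pandas 2.3.3, numpy 2.4.6 and matplotlib 3.10.9 were used for summaries and plots. Promoter windows came from RefSeq (GRCm38.p6) and transcripts from GENCODE M21. The members, lists, markers and tests were chosen with earlier results of these data known. Besides the 10 members and Atf4, each pathway list is represented by any gene past the threshold, the 2 with the smallest unadjusted p and the 2 most abundant. Further genes are named as picked from their values. The values of 1 gene that this rule selects are not reported here. The labels do not say what a replicate number marks, so libraries were not paired in the main setting.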

Additional observations from a re-analysis of the deposited data

Results flagged for a closer look

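Among 70 groups of 4 libraries examined for the 10 genes, the within-library ratios and the named pathway genes, 6 held a single library far from the other 3. Chance gives about 5% of independent groups, or 3.5 here. These groups are not independent, since libraries differed together and the ratios are formed from genes also examined, so 3.5 is only a rough guide. Acadl stood at 225 TPM in control replicate 1, high beside 195 to 199 TPM in the other controls. Ppara stood at 0.547 TPM in control replicate 3, low beside 1.19 to 1.26 TPM. Fabp3 stood at 367 TPM in mutant replicate 2, low beside 410 to 416 TPM. Nrf1 stood at 21.3 TPM in control replicate 3, low beside 23.5 to 23.8 TPM, and at 23.4 TPM in mutant replicate 1, high beside 20.7 to 20.98 TPM. Stk11 stood at 48.8 TPM in mutant replicate 4, low beside 54.9 to 56.0 TPM. Cpt1a was not among the 6, because its low control libraries are a pair.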

How the results depend on the processing

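No member and no pathway gene passed the threshold under any of the 19 alternatives, a count of 0 in each. The count over all genes fell from 6 to 0 without a filter on low values, without a variance trend, with the replicate number as a block and, chosen after the values were seen, without control replicates 1 and 3. It ranged from 0 to 3 when 1 library was left out: 0 without control replicate 2, 3 or 4, 1 without control replicate 1, 2 without mutant replicate 2 and 3 without mutant replicate 1, 3 or 4. Same-numbered libraries did not deviate together (correlations -0.082 to 0.035), though control and mutant replicate 2 were each other's best match. These few correlations cannot exclude a pairing. The replicate block left 0 members past the threshold. Without control replicates 1 and 3, Cpt1a turned to -0.034, Acadm to 0.017 and Acadl to 0.028. With 1 library left out, Cpt1a ranged from 0.48 to 1.09, Acadl from -0.077 to 0.045, Acadm from -0.056 to 0.0071, Hadha from -0.013 to 0.035 and Ppargc1a from -0.039 to 0.035. Ppara moved from -0.23 to -0.49 with a pseudocount of 0.1 and was below the filter at 5 TPM. Cpt1b, Cpt2, Acadvl, Hadhb and Ppara kept their direction in every alternative run but not their size: with 1 library left out they ranged from -0.070 to -0.030, 0.021 to 0.087, -0.15 to -0.069, 0.0073 to 0.059 and -0.42 to -0.13. The cause of these changes was not tested. Precision is limited by 4 libraries per group and by unknown depth.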

Other observations

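Rxrg, a gene for a partner receptor of PPAR-alpha, was chosen after its values were seen, as the highest point of the regulator list at a log2 fold change of 0.46 (unadjusted p = 0.196, adjusted p = 0.896). It held 1.53, 0.111, 0.128 and 0.118 TPM in control ventricles and 0.0809, 1.32, 1.34 and 1.18 TPM in mutant ventricles. Like Cpt1a it took either a high or a low value in a library, but the libraries were not the same: control replicate 1 was low for Cpt1a and high for Rxrg.

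Some other regulators, also named after their values were seen, were listed above Ppara, while Rxrg and Pparg had lower means. Esrrg, for an estrogen-related receptor that drives the same enzymes, held 32.2 to 35.1 TPM in control ventricles and 32.4 to 35.1 TPM in mutant ventricles. Esrra held 37.8 to 46.8 TPM and 29.8 to 46.3 TPM, and Ppard 11.7 to 13.7 TPM and 10.1 to 13.6 TPM. Mutant replicate 4 was the lowest library for Esrra, Ppard and Ppargc1b, and none of the 3 passed (adjusted p = 0.947, 0.987 and 0.929). This was not particular to them: it was also lowest for Ncor1, Med1, Klf15, Prkaa2 and Stk11. The regulator list summed to 480 TPM in mutant replicate 4, against 503 to 561 TPM in the other libraries.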
